A study of Mus musculus with 12 samples.

Results

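The data are bulk RNA-seq of mouse retina, and the genes described are 9 genes of the cell cycle: Mki67, Top2a, Ccnb1, Cdk1, Birc5, Ccna2, Rrm2, Mcm5 and Ccnd1. They were taken by symbol from both deposited expression tables, where each has 1 row, out of 25124 genes listed in each table. All 12 libraries were used, in 6 groups of 2, and all came from wild-type animals. In the single-IOP series, intraocular pressure (IOP) was raised to 30 mmHg for 1 h in 1 eye of mice aged 3 or 18 months, which gave the groups 3mo IOP and 18mo IOP. The untreated fellow eyes gave 3mo control and 18mo control, and retinas were taken on day 2. In the repeated-IOP series the same elevation was given 4 times, every other week, to mice aged 3 months when it was first given, and 4xIOP and 4xIOP control retinas were taken on day 2 after the last. A control is thus the other eye of a treated animal, not the eye of an animal that was never treated. By the study's description the libraries of a group are biological replicates, with RNA taken from the retina of single eyes. The labels do not tie a control eye to its treated eye.

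The cell cycle runs from growth through DNA synthesis to mitosis, and each step is driven by cyclins bound to cyclin-dependent kinases. Most genes of DNA synthesis and mitosis are shut off in cells that have left the cycle, and neurons of the adult mouse retina do not divide. Cells of the retina that can re-enter the cycle in the adult include microglia, the resident macrophages, and, to a small extent in mammals, Müller glia. Among the 9 genes, Ccnd1 encodes cyclin D1, which starts the passage from growth to DNA synthesis. Mcm5 encodes a subunit of the replicative helicase, and Rrm2 the small subunit of ribonucleotide reductase, which makes deoxyribonucleotides. Ccna2 encodes cyclin A2 of the synthesis and G2 phases. Cdk1 and Ccnb1 encode the kinase and the cyclin that drive entry into mitosis. Top2a encodes the topoisomerase that untangles sister chromatids, Birc5 encodes survivin of the chromosomal passenger complex, and Mki67 encodes Ki-67, which coats mitotic chromosomes and is a common stain for cycling cells.

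Genes of late cell cycle phases are known to be held off in resting cells through the CHR element (cell cycle genes homology region), often beside CCAAT boxes, and genes of DNA synthesis through E2F sites. The 150 bases before the start of Mki67, Top2a, Cdk1, Ccnb1 and Rrm2 are shown because these 5 genes passed the test in the repeated-IOP series. The sequences are from RefSeq on GRCm38.p6, written along the gene from 5′ to 3′, with each motif found on either strand in capitals. The CHR was searched as TTTGAA and in its variant form TTCGAA, and the CCAAT box by the letters of its name. E2F sites were searched as the words TTTCCCGC, TTTCGCGC, TTTGCCGC and TTTGGCGC.
Mki67, minus strand, chr7:135716380-135716529: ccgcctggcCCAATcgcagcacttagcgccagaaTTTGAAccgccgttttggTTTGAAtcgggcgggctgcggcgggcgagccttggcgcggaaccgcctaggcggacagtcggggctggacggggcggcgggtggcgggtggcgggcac
Top2a, minus strand, chr11:99024190-99024339: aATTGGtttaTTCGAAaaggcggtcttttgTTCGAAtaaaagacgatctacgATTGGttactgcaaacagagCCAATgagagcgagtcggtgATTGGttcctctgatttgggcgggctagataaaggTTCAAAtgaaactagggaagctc
Cdk1, minus strand, chr10:69352913-69353062: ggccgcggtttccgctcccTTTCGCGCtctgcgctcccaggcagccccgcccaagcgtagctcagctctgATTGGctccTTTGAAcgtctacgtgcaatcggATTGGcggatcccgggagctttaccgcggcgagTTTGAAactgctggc
Ccnb1, minus strand, chr13:100786487-100786636: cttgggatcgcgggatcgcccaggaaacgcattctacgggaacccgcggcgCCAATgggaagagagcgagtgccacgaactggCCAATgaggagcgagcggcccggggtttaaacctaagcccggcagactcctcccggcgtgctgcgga
Rrm2, plus strand, chr12:24708104-24708253: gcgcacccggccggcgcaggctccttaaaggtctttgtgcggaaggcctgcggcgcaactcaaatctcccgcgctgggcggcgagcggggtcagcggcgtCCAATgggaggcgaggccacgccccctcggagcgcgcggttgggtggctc

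Of the 9 genes, 7 had a promoter in the reference table, and 250 bases before each start were searched. A CHR word lay before Mki67, Top2a and Cdk1, against 17.1% of 32851 promoters of the same length. A CCAAT box lay before 6 of the 7 genes, against 33.8% of all promoters, and the exception was Birc5, which held none of the words. An E2F word lay before Cdk1 and Mcm5, against 1.86% of all promoters; in Mcm5 the matches of 2 E2F words on opposite strands overlap. Of the genes with a promoter in the mitosis, DNA replication and G1/S lists described below, a CCAAT box lay before 67.5%, 65.4% and 53.3%. In that order a CHR word lay before 37.5%, 23.1% and 33.3%, and an E2F word before 7.5%, 30.8% and 40%. These are matches of letters and do not show that a factor binds there.

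Levels are given as FPKM, fragments per kilobase of the listed transcript scaled to the depth of the library, so that genes of different length can be compared. Because the values are whole reads divided by known lengths, the number of reads behind each value was recovered, and depth lay between 39766239 and 59455033 tags a library. In the control retinas the 9 genes fell into 2 ranges. Ccna2, Ccnd1 and Mcm5 lay between 0.779 and 19.2 FPKM, and the other 6 genes lay between 0 and 0.412 FPKM, from 58 reads down to none. In 3mo control the order of the mean level was Ccna2, Ccnd1, Mcm5, Birc5, Cdk1, Rrm2, Ccnb1, Mki67 and Top2a. In that order the ranges of Cdk1 and Rrm2, of Rrm2 and Ccnb1, and of Mki67 and Top2a overlapped. Top2b, the paralog of Top2a that non-dividing cells use, lay between 35.7 and 59.5 FPKM over the 12 libraries. Rrm2b, the paralog of Rrm2 that serves cells outside DNA synthesis, lay between 3.501 and 7.77 FPKM, and Ccna1, the germline paralog of Ccna2, had at most 2 reads in any library.

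Which test a gene could have depended on its level. The FPKM values were fitted with limma where a gene averaged 0.5 FPKM or more, which covered Birc5, Ccna2, Ccnd1 and Mcm5 in the single-IOP series and Ccna2, Ccnd1 and Mcm5 in the repeated-IOP series. The recovered reads were fitted with limma voom where a gene averaged 10 reads or more, which covered 8 of the 9 genes (not Ccnb1) in the single-IOP series and 9 in the repeated-IOP series. In the repeated-IOP series 6 of the 9 genes averaged under 10 reads in the controls and entered that fit through the 4xIOP libraries, as did Top2a and Rrm2 through the IOP libraries of the single-IOP series. The number of genes that passed this filter is therefore no result. A call required a p of 0.05 or less after Benjamini-Hochberg adjustment over all genes tested and a log2 fold change of 1 or more in size. The median log2 fold change of all genes lay between 0.09 and 0.18 in the comparisons of 2 groups, and median-of-ratios size factors lowered it by 0.08 to 0.21.

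**Figure D1:**
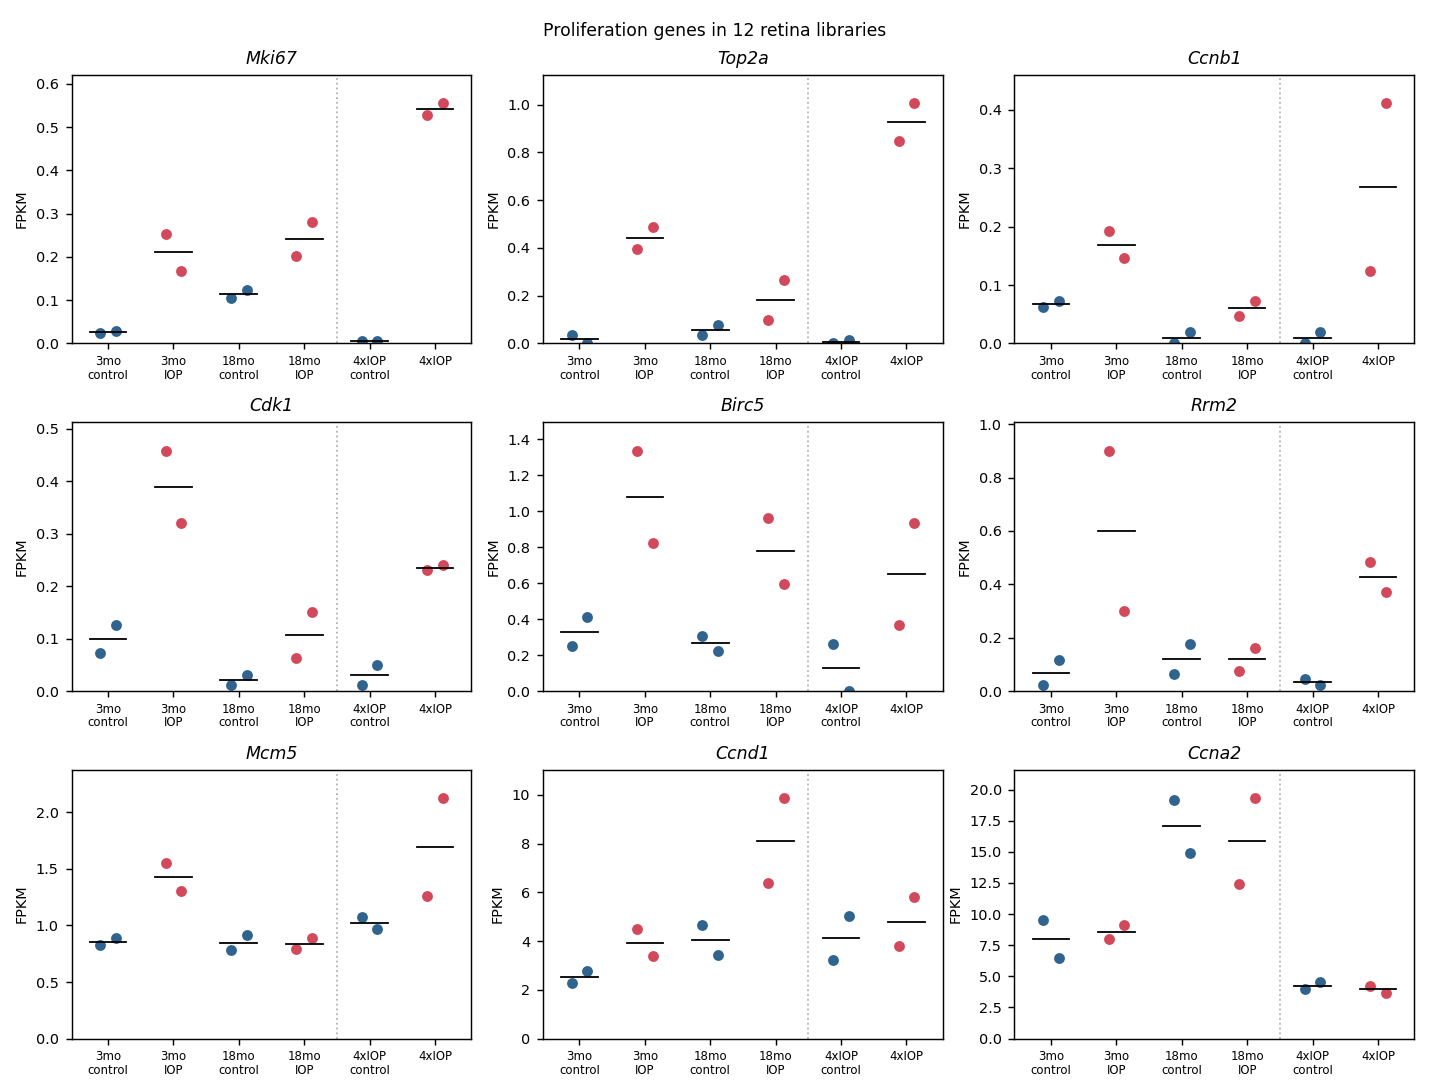
Level of each gene in FPKM (vertical axis, from 0, each panel on its own scale) in the 12 libraries by group (horizontal axis), with blue points for control and red for IOP libraries, a line for the mean of 2, and a dotted line between the separately normalised series. Mki67 and Top2a stand clear of their controls in 4xIOP, at up to 0.555 and 1.005 FPKM, the 3mo IOP libraries of Rrm2 lie far apart at 0.900 and 0.299 FPKM, and Ccna2 reaches 19.3 FPKM at 18 months and overlaps between control and IOP in each pair.

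A single elevation at 3 months was the first comparison, and it asks which genes move in young retina 2 days after a mild rise in pressure. The IOP libraries lay above both control libraries for 8 of the 9 genes, all but Ccna2, where 25.9% of 20302 genes lay higher without overlap. None of the 8 genes tested was called, so the rises below are descriptions of 4 libraries. Mki67 had 10 and 14 reads in 3mo control and 139 and 70 in 3mo IOP, or 0.024 and 0.029 FPKM against 0.254 and 0.167. Its reads per tag were 8.10 times as high in 3mo IOP (95% interval 5.30 to 12.9, counting error only). Top2a had 8 and 1 reads in control and 111 and 105 in IOP retinas. The 2 IOP libraries were close to each other and the control reads were too few to give the fold well, which was 22.3 with a counting interval of 11.5 to 49.5. Cdk1 had 13 and 26 reads against 108 and 58, and its ratio was 3.96 (2.78 to 5.77).

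The other genes of mitosis and DNA synthesis had smaller or less even differences. Rrm2 had 2 and 12 reads in 3mo control and 106 and 27 in 3mo IOP, and in FPKM the IOP libraries of Rrm2, Birc5 and Ccnd1 differed from each other by more than the lower of them did from the higher control. Birc5 had 10 and 19 reads against 70 and 33, and Ccnb1 6 and 8 against 24 and 14. For these 3 genes the groups did not overlap, and the ratios were 8.84 (5.09 to 16.6), 3.30 (2.17 to 5.18) and 2.52 (1.34 to 5.04) in that order. Mcm5 stood at 0.829 and 0.887 FPKM in control and 1.55 and 1.31 in IOP retinas, and Ccnd1 at 2.29 and 2.79 against 4.48 and 3.38. The 2 genes rest on more reads, from 117 to 923 a library, and their ratios were 1.68 (1.44 to 1.96) and 1.57 (1.44 to 1.71). Ccna2 was at 9.56 and 6.45 FPKM in control and at 7.997 and 9.09 in IOP retinas, and the groups overlapped.

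By limma voom on reads with Benjamini-Hochberg adjustment the nearest to a call at 3 months were Mki67, with a log2 fold change of 2.93 (SE 0.56, adjusted p = 0.106), and Top2a, with 4.87 (SE 1.03, adjusted p = 0.131). In this fit 0 of the 8 genes were called, where 0.0190% of 15753 genes were called higher. Of the 8, 6 had an unadjusted p below 0.05, beside 1370 of all 15753. By the FPKM fit 0 of the 4 genes tested were called, where 0.568% of 13731 genes were called higher, and 2 of the 4 had an unadjusted p below 0.05, beside 1169 of all. Birc5 had a log2 fold change of 0.91 (limma with Benjamini-Hochberg adjustment, adjusted p = 0.275) on the log2(FPKM + 0.5) scale, which understates the change of low genes. No alternative listed for the processing turned any gene of this comparison into a call.

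The same elevation at 18 months asks how aged retina responds. The IOP libraries lay above both controls for 6 genes, Mki67, Top2a, Ccnb1, Cdk1, Birc5 and Ccnd1, where 30.0% of 20302 genes lay higher without overlap. Mki67 had 46 and 58 reads in 18mo control and 112 and 168 in 18mo IOP, a ratio of 2.13 (1.70 to 2.70). Cdk1 had 2 and 6 reads against 15 and 39, and Ccnb1 0 and 2 against 6 and 10. These 2 genes, the kinase and the cyclin of mitotic entry, were at the limit of 3 reads or near it in aged control retina, so their ratios of 5.35 (2.53 to 13.01) and 6.34 (1.49 to 56.8) are loose. Top2a had 8 and 19 reads against 28 and 82, and Birc5 13 and 10 against 51 and 34. In Top2a, Cdk1, Birc5 and Ccnd1 the 18mo IOP libraries differed from each other by more than the lower of them did from the higher control, in FPKM.

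Ccnd1, which had the most reads of the genes that were higher in 18mo IOP, stood at 4.65 and 3.41 FPKM in control and 6.38 and 9.85 in IOP retinas. Rrm2 stood at 0.063 and 0.177 FPKM in control and 0.076 and 0.163 in IOP retinas. Mcm5 stood at 0.779 and 0.918 against 0.793 and 0.886, and Ccna2 at 19.2 and 14.9 against 12.5 and 19.3. In these 3 genes the groups overlapped. By limma with Benjamini-Hochberg adjustment 0 of 4 genes were called by FPKM, where 0.117% of 13731 genes were called higher, and Ccnd1 had a log2 fold change of 0.91 (SE 0.26, adjusted p = 0.224). By reads 0 of 8 were called, beside 0% of 15753 genes, and Mki67 had 1.07 (SE 0.39, limma voom, adjusted p = 0.380). At an unadjusted p below 0.05 there were 2 of the 4 by FPKM (1297 of 13731 genes) and 4 of the 8 by reads (1502 of 15753 genes). Ccnb1, tested with no minimum of reads, had 2.55 (SE 0.86, limma voom with Benjamini-Hochberg adjustment, adjusted p = 0.359) at 18 months and 1.26 (SE 0.71, adjusted p = 0.762) at 3 months.

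Whether the response differed with age was tested by the interaction of IOP with age. It was called for 0 of the 4 genes by FPKM, beside 0% of 13731 genes, and for 0 of the 8 by reads, beside 0% of 15753 (limma with Benjamini-Hochberg adjustment, all adjusted p = 0.9999). At an unadjusted p below 0.05 were 0 of the 4 by FPKM (218 of all genes) and 2 of the 8 by reads (227 of all genes), Mki67 and Top2a, with log2 differences of -1.86 (SE 0.69) and -3.28 (SE 1.31), which is a smaller rise at 18 months. For Rrm2 the log2 difference was -3.16 (SE 1.45). A difference of the rise between the ages was therefore not shown for any of the 9 genes, and the standard errors leave room for large ones.

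**Figure D2:**
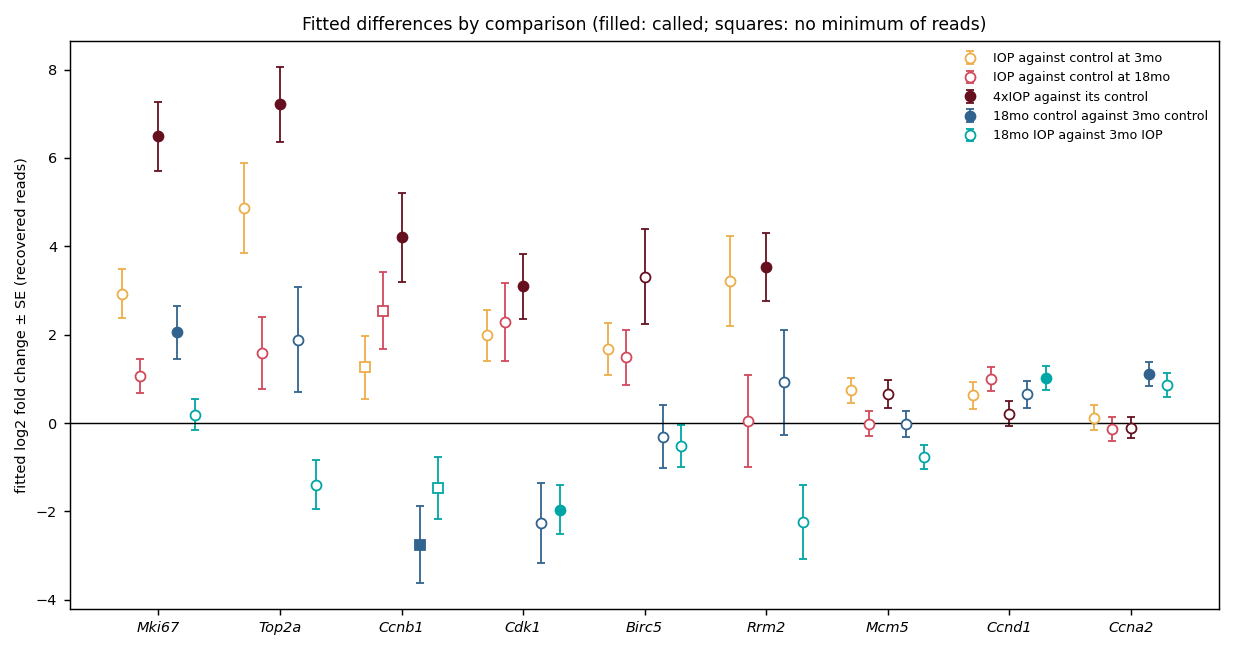
Fitted log2 fold change ± SE by limma voom on recovered reads (vertical axis) for each gene (horizontal axis) and comparison (colour), filled where called and square where the fit had no minimum of reads. The 5 calls of 4xIOP, where 8.07% of all genes tested were called higher, lie between 3.10 and 7.21. No comparison of IOP with control in the single-IOP series has a filled symbol.

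In the repeated-IOP series 5 of the 9 genes were called by reads, where 8.07% of 15623 genes were called higher. After 4 elevations Mki67 had 299 and 236 reads against 2 and 2 in the fellow eyes, or 0.529 and 0.555 FPKM against 0.005 and 0.005. Top2a had 247 and 220 reads against 0 and 3. In both genes the 4xIOP libraries were close to each other and the controls were at or under 3 reads, so that the ratios, 112 (43.3 to 411) for Mki67 and 130 (44.2 to 632) for Top2a, have wide counting intervals. Rrm2 had 59 and 34 reads against 4 and 2, with a ratio of 12.9 (5.72 to 36.1). Cdk1 had 56 and 44 reads against 2 and 9, with a ratio of 7.58 (4.06 to 15.7). Ccnb1 had 16 and 40 reads against 0 and 2, with a ratio of 23.4 (6.17 to 198). All 5 genes stood above their controls in both libraries, and in Ccnb1 the 4xIOP libraries differed from each other by more than the lower of them did from control.

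Birc5 had 20 and 38 reads in 4xIOP against 10 and 0, so that a single control library held all its control reads. Mcm5 stood at 1.26 and 2.12 FPKM against 1.07 and 0.966, higher without overlap but with the lower 4xIOP library near the controls. Ccnd1 stood at 3.81 and 5.79 FPKM against 3.22 and 5.03, and Ccna2 at 4.22 and 3.68 against 3.96 and 4.54. These 2 cyclins overlapped between the groups. In all, 7 of the 9 genes were higher without overlap, where 28.1% of 19593 genes were.

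By limma voom on reads with Benjamini-Hochberg adjustment, 5 genes rose in 4xIOP: Top2a by 7.21 (SE 0.86, adjusted p = 7.62e-06), Mki67 by 6.49 (SE 0.77, adjusted p = 7.69e-06), Ccnb1 by 4.20 (SE 1.00, adjusted p = 0.00732), Rrm2 by 3.53 (SE 0.78, adjusted p = 0.00378) and Cdk1 by 3.10 (SE 0.73, adjusted p = 0.00705), on the log2 scale. In this fit 8.07% of 15623 genes were called higher. With no minimum of reads, which tests all 9 genes without regard to their level, 5 of 9 were called higher where 6.67% of 19593 genes were. Fitted folds of genes with so few control reads depend on the offset that voom adds to each count. Birc5 had 3.32 (SE 1.08, limma voom, adjusted p = 0.0598) and was called only when a replicate block was added or a control library was left out, as given below. By the FPKM fit 0 of the 3 genes tested were called, where 5.45% of 13718 genes were called higher, and 0 of the 3 had an unadjusted p below 0.05 (2119 of all genes). Mcm5 had 0.50 (limma with Benjamini-Hochberg adjustment, adjusted p = 0.355), Ccnd1 0.20 and Ccna2 -0.09.

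The calls of Mki67, Top2a and Rrm2 held without each library in turn, and those of Cdk1 and Ccnb1 did not. Without 4xIOP control 1, limma voom with Benjamini-Hochberg adjustment gave Cdk1 2.19 (adjusted p = 0.107), Ccnb1 3.10 (adjusted p = 0.0767) and Birc5 5.56 (adjusted p = 7.21e-05), since that library holds the 10 control reads of Birc5. Without 4xIOP 2, Ccnb1 had 3.41 (adjusted p = 0.110 by limma voom), and with median-of-ratios size factors 4.12 (adjusted p = 0.0557).

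Age was compared in control retinas and again in IOP retinas. In control retinas Mki67 had 10 and 14 reads at 3 months and 46 and 58 at 18 months, a ratio of 4.27 (2.72 to 6.96), while Cdk1 went the other way, from 13 and 26 reads to 2 and 6. Ccnb1 had 6 and 8 reads at 3 months and 0 and 2 at 18 months. The groups did not overlap in these 3 genes, and Ccnb1 had at most 8 reads in any of the 4 libraries. Ccna2 went from 9.56 and 6.45 FPKM to 19.2 and 14.9, and Ccnd1 from 2.29 and 2.79 to 4.65 and 3.41. Top2a (8 and 1 reads against 8 and 19), Birc5 (10 and 19 against 13 and 10), Rrm2 (2 and 12 against 6 and 18) and Mcm5 (117 and 144 against 116 and 146) overlapped. In all, 5 of the 9 genes did not overlap between the ages, where 64.2% of 20302 genes did not.

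Ccna2 and Mki67 were called higher at 18 months. Ccna2 rose by 1.06 on the log2(FPKM + 0.5) scale (SE 0.27, limma with Benjamini-Hochberg adjustment, adjusted p = 0.0158), the 1 gene of 4 called by FPKM, where 23.2% of 13731 genes were called in either direction. By reads 2 of 8 were called, Ccna2 and Mki67, the latter with 2.05 (SE 0.59, limma voom, adjusted p = 0.0263), where 26.7% of 15753 genes were called in either direction. The shares are close to the background. With no minimum of reads Ccnb1 was also called, lower by a log2 fold change of -2.75 (SE 0.87, limma voom, adjusted p = 0.0424), where 21.4% of 20302 genes were called in either direction. Cdk1 had -2.26 (SE 0.91, limma voom, adjusted p = 0.0775). The call of Mki67 was lost without any 1 of the 4 libraries, with adjusted p between 0.0741 and 0.118 (limma voom). The call of Ccna2 by FPKM was lost without 3mo control 2 (0.79), 18mo control 1 (0.88) or 18mo control 2 (1.23), with adjusted p between 0.0571 and 0.0978 (limma), and its call by reads was lost without the same libraries, with adjusted p between 0.0631 and 0.102 (limma voom). It was also lost with median-of-ratios size factors (0.90) and with the trend over transcript length removed (0.88), which are under the fold required.

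In IOP retinas the older animals had lower values of 5 genes without overlap, Top2a, Cdk1, Ccnb1, Rrm2 and Mcm5, and higher values of Ccnd1 and Ccna2, where 64.5% of 20302 genes did not overlap in either direction. Cdk1 had 108 and 58 reads in 3mo IOP and 15 and 39 in 18mo IOP, and fell by 1.96 on the log2 scale (SE 0.55, limma voom with Benjamini-Hochberg adjustment, adjusted p = 0.0245). Ccnd1 rose by 1.02 (SE 0.28, limma voom, adjusted p = 0.0223), and the FPKM fit gave 0.94 (limma, adjusted p = 0.0232), which is under the fold required. Thus 2 of 8 genes were called by reads, where 25.9% of 15753 genes were, and 0 of 4 by FPKM, where 21.8% of 13731 genes were, with 3 of the 4 at an unadjusted p below 0.05 (7273 of all genes). Rrm2 had a log2 fold change of -2.24 (SE 0.83, adjusted p = 0.0608) and Top2a -1.39 (SE 0.56, adjusted p = 0.0755) by limma voom. Mki67, which was called higher with age in controls, had 0.19 (SE 0.34) here, with 139 and 70 reads against 112 and 168. The call of Cdk1 was lost without 3mo IOP 1 (-1.68), 3mo IOP 2 (-2.19) or 18mo IOP 1 (-1.36), with adjusted p between 0.0640 and 0.133 (limma voom). That of Ccnd1 was lost without 3mo IOP 1 (1.23), 3mo IOP 2 (0.82) or 18mo IOP 2 (0.70), with adjusted p between 0.0813 and 0.131 (limma voom), and with median-of-ratios size factors, where 0.92 is under the fold required.

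The wider cell cycle was followed in lists of mitosis (49 genes), DNA replication (33), G1/S regulators (19), CDK inhibitors (7) and quiescence (11), written from general knowledge and without the 9 genes. In 4xIOP, limma voom on reads tested 45 mitosis genes, of which 11 rose and 2 fell, where 8.07% of all genes tested rose and 0.864% fell. The median log2 fold change of these 45 was 0.91, beside 0.12 for all genes. Some entered through the 4xIOP libraries alone, as Pbk and Aurkb did with no control read. With no minimum of reads 12 of 49 mitosis genes rose and 2 fell, with a median of 1.08 beside 0.14 for all genes, of which 6.67% rose. The 11 mitosis genes were Pbk, Aurkb, Bub1, Kif2c, Hmmr, Kif23, Cdc20, Prc1, Iqgap3, Ncaph and Cenpf, which act in the spindle, its checkpoint, cytokinesis and chromosome condensation. Of 32 DNA replication genes 5 rose (Uhrf1, Tk1, Gins2, Mcm3 and Mcm6), with a median of 0.26, and with no minimum 5 of 33. Of 17 G1/S regulators Ccnd2 rose, with a median of 0.44, which as a share is below that of all genes. Of 6 CDK inhibitors Cdkn1a rose, with a median of 0.34, a call that was lost with no minimum of reads. Of 11 quiescence genes 0 were called, with a median of -0.09 and 1 at an unadjusted p below 0.05. Pbk, Uhrf1 and Aurkb, with the largest fitted changes of the lists, are described by their reads.

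Pbk, a mitotic kinase, had 0 and 0 reads in 4xIOP control and 21 and 28 in 4xIOP. Aurkb, the kinase of the complex that survivin belongs to, had 0 and 0 against 25 and 20. Uhrf1, which keeps DNA methylation through replication, had 0 and 4 against 63 and 80. Each was absent or nearly so from the fellow eyes, as Mki67 and Top2a were. In 3mo IOP Pbk had 77 and 37 reads against 0 and 0 in control (limma voom with Benjamini-Hochberg adjustment, adjusted p = 0.0589), and no list gene was called there. Spc25, a kinetochore gene, was the mitosis gene that fell most in 4xIOP, from 42.1 and 29.9 to 5.58 and 7.30 FPKM. At 112 and 217 FPKM in 3mo control, Spc25 lay far above every one of the 9 genes in retina, and its log2 fold change in 4xIOP was -2.39 (SE 0.26, limma with Benjamini-Hochberg adjustment, adjusted p = 3.97e-05).

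By the FPKM fit, which leaves out most of the mitosis list, 0 of 15 mitosis genes rose and 1 fell in 4xIOP, where 748 of all 13718 genes rose and 95 fell, and Gins2 with 1.18 (adjusted p = 0.0108) and Ccnd2 with 1.03 (adjusted p = 0.0219) rose by limma. After a single elevation 0 of 43 mitosis genes were called at either age by reads, where 0.0190% and 0% of all genes were called higher. At an unadjusted p below 0.05 were 16 of the 43 at 3 months and 2 at 18 months, beside 8.70% and 9.53% of all genes. The medians were 0.57 and 0.18, where those of all genes were 0.17 and 0.10. The list genes nearest to a call by FPKM were Ccnd2, a D-type cyclin like Ccnd1, with 1.11 (limma, adjusted p = 0.159), Gins1, of the replicative helicase, with 0.73 and Cdk2, the kinase of cyclin A2, with 1.08 at 3 months. At 18 months they were Cdkn1a with 1.45 (limma, adjusted p = 0.115), Kif4, a chromosome motor, with -0.93 and Ccnd3, another D-type cyclin, with 0.88. The interaction with age was called for none of them, beside 0 of all genes, and by reads its smallest unadjusted p in the lists was that of Pbk (-5.24, limma voom, adjusted p = 0.9999), followed by Aurka and Ndc80. With age in IOP retinas 10 of the 43 fell and 2 rose, where 12.8% of all genes fell and 13.1% rose. The share called in either direction is close to the 25.9% of all genes, and the median was -0.63 beside 0.09. Those that fell included Shcbp1, of the midbody, with a log2 fold change of -2.93 (limma voom, adjusted p = 0.0137), and Mad2l1, of the spindle checkpoint, with -1.67 by FPKM (limma, adjusted p = 0.00314). Of 31 DNA replication genes 5 fell there, a share near that of all genes, and 0 rose. Of the G1/S regulators Myc had 74 and 28 reads in 3mo IOP and 175 and 1004 in 18mo IOP, called higher by 2.90 (limma voom, adjusted p = 0.0442) with most of its reads in 1 library. In control retinas 4 of 43 mitosis genes fell and 2 rose, where 11.5% of all genes fell and 15.2% rose. There Ccne2, a cyclin of DNA synthesis onset, fell with age by 1.68 (limma, adjusted p = 0.00819) and Nuf2, a kinetochore gene, by 2.06 (limma voom, adjusted p = 0.0110).

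Cdkn1a, which encodes the CDK inhibitor p21, was called higher by reads in 4xIOP, though not with no minimum of reads, and with age in both control and IOP retinas. It stood at 0.707 and 0.571 FPKM in the young controls, at 5.02 and 4.48 in the aged controls and at 10.1 and 18.7 in 18mo IOP. In 4xIOP it stood at 1.04 and 0.719 FPKM against 0.264 and 0.322 in the fellow eyes. The paralogs Top2b and Rrm2b were called in no comparison.

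**Figure D3:**
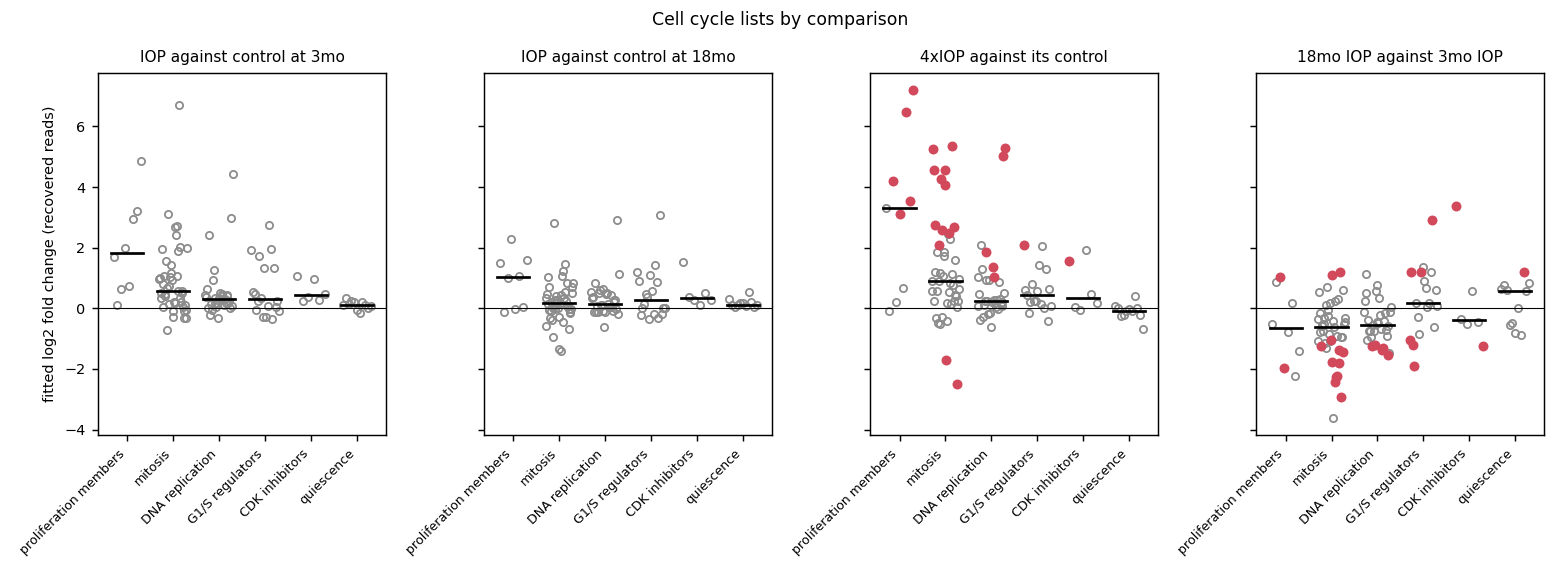
Fitted log2 fold change by limma voom on recovered reads (vertical axis) of each gene tested, by list (horizontal axis), in 4 comparisons, with red points for called genes and a line for the median of the list. In 4xIOP the mitosis list has 11 genes called higher and 2 called lower, where 8.07% and 0.864% of all genes are, and in 18mo IOP against 3mo IOP 2 called higher and 10 called lower, where 13.1% and 12.8% of all genes are.

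The libraries are of whole retina, so fewer cells of a type and less RNA per cell cannot be told apart, and the cells that carried these reads are not identified. The 10 rod markers summed to at least 5484 FPKM in every library, and they stood at 11176 and 11622 FPKM in 4xIOP control and 5484 and 8439.8 in 4xIOP. The 16 markers of microglia and leukocytes had higher sums in the IOP groups. At 3 months their summed level was 16.8 and 26.7 FPKM in the control libraries and 76.9 and 60.2 in the IOP libraries, and at 18 months 69.2 and 78.7 against 210 and 107. In the repeated-IOP series it was 9.54 and 9.77 FPKM in the controls and 138 and 129 in 4xIOP. Between 11 and 15 of the 16 were above 3 reads in a library, and at 0 were Cd3e, of T cells, in 3mo control and in 4xIOP control and Cd79a, of B cells, in 4xIOP. By reads, limma voom called 13 of the 14 tested higher in 4xIOP, where 8.07% of all genes were. In each 4xIOP control library 11 of the 16 were above 3 reads. Some of the 14 may therefore have entered that fit through the 4xIOP libraries, where they were higher. After a single elevation 0 of 13 were called by reads and 0 of 12 by FPKM at either age, with 8 of the 13 at 3 months and 7 at 18 months at an unadjusted p below 0.05. The median marker stood at 1.85 and 1.96 FPKM in 18mo control and at 3.98 and 1.86 in 18mo IOP, so that the medians of these groups overlapped. With age 8 of the 13 were called higher by reads in control retinas, where 15.2% of all genes were, and 6 in IOP retinas, where 13.1% were. The part of these cells in the result was not tested.

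The 12 markers of Müller glia summed to 987 and 1507 FPKM in 3mo control and 1592 and 1174 in 3mo IOP, where the groups overlapped, and to 2240 and 1792 FPKM in 18mo control and 3283 and 3208 in 18mo IOP, where they did not. By FPKM Gfap was the 1 marker called at each age, and by reads 0 of 12 were called at either age, with 2 at 3 months and 8 at 18 months at an unadjusted p below 0.05 (limma voom). In the repeated-IOP series they summed to 1058 and 1120 FPKM in 4xIOP control and 1015 and 1105 in 4xIOP. The sums overlapped there, while limma voom on reads called Gfap, Vim, Sox9 and Apoe higher and Glul lower. With age 5 of the 12 were called higher by reads in control retinas, where 15.2% of all genes were, and 8 in IOP retinas, where 13.1% were. The 5 astrocyte markers summed to 7.91 to 13.9 FPKM over the 6 control libraries and 41.9 to 107 over the 6 IOP libraries. In the IOP libraries most of this was Gfap, which is also a marker of reactive Müller glia, and the other 4 summed to 5.22 to 11.8 FPKM in control and 8.77 to 19.2 in IOP libraries.

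The 10 endothelial markers summed to 12.7 to 15.3 FPKM in 3mo control and 17.4 to 20.8 in 3mo IOP, to 65.3 to 69.2 in 18mo control and 90.2 to 91.8 in 18mo IOP, and to 30.7 to 36.5 in 4xIOP control and 62.8 to 68.0 in 4xIOP. The 8 markers of pericytes and smooth muscle summed to 11.6 and 10.6 FPKM in 3mo control and 100 and 44.3 in 3mo IOP, where Acta2 and Tagln were called higher by FPKM, and to 38.2 and 42.0 in 18mo control and 54.7 and 42.4 in 18mo IOP. In 4xIOP control they stood at 16.0 and 13.7 FPKM and in 4xIOP at 20.2 and 18.9. By reads 2 of 10 endothelial markers were called higher in 4xIOP, where 8.07% of all genes were, and 0 were called at 3 or 18 months, with 1 at an unadjusted p below 0.05 at each age. With age 10 of 10 were called higher in control retinas, where 15.2% of all genes were, and 10 of 10 in IOP retinas, where 13.1% were. Their median log2 fold changes were 2.37 and 2.46. Of the pericyte and smooth muscle markers 0 of 8 were called by reads in any of the 3 comparisons, with 4 at 3 months, 1 at 18 months and 2 in 4xIOP at an unadjusted p below 0.05. Their median log2 fold change was 1.80 at 3 months, but 0.12 at 18 months and 0.10 in 4xIOP, beside 0.10 and 0.12 for all genes. With age 4 of the 8 were called higher in control retinas, where 15.2% of all genes were. In IOP retinas 4 were called higher and 3 lower, where 13.1% and 12.8% of all genes were.

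The 11 lens markers summed to 1.34 to 3.68 FPKM in 4xIOP control, with Mip and Crygd at 0, and to 41.8 to 62.6 in 4xIOP. They summed to 12.02 and 10.4 FPKM in 3mo control against 12.8 and 29.2 in 3mo IOP, and to 2.93 and 4.21 in 18mo control against 6.66 and 15.4 in 18mo IOP. By reads 9 of 10 were called higher in 4xIOP, where 8.07% of all genes were. Mip and Crygd, with no control read, entered that fit through the 4xIOP libraries alone, so the number tested is no result. At 3 or 18 months 0 of 7 were called, with 1 at an unadjusted p below 0.05 at each age. The lens epithelium also holds dividing cells. The 11 markers of retinal pigment epithelium summed to 239 and 233 FPKM in 3mo control and 724 and 324 in 3mo IOP, where Mlana was called higher by FPKM. They stood at 15.4 to 28.9 FPKM over the 18-month libraries, where control and IOP overlapped, and 9 of the 10 tested by FPKM were called lower with age in control and in IOP retinas, as were 1590 and 1593 of all 13731 genes. In 4xIOP control they stood at 34.3 to 43.0 FPKM and in 4xIOP at 7.19 to 12.3, with 10 or 11 above 3 reads, and 8 of the 10 tested by reads were called lower, where 0.864% of all genes were. The 10 markers of retinal ganglion cells summed to 363 and 701 FPKM in 3mo control and 38.8 and 90.6 in 18mo control, where 6 of 10 were called lower by reads and 11.5% of all genes were. They summed to 502 and 576 FPKM in 3mo IOP and 98.9 and 33.8 in 18mo IOP, where 10 of 10 were called lower by reads and 12.8% of all genes were. The 5 blood markers varied within groups, with 19.5 and 262 FPKM in 3mo control and 29.3 and 313 in 3mo IOP. They summed to 166 and 426 FPKM in 18mo control and 54.3 and 44.3 in 18mo IOP, where 0 of 5 were called and 1 had an unadjusted p below 0.05, and they overlapped between 4xIOP and its control. The 9 markers of surface epithelium summed to 48.2 FPKM in 1 of the 3mo control libraries and to 0.365 to 15.2 FPKM in the other 11, and 0 were called in any comparison of IOP with control by reads or FPKM, with 1 at an unadjusted p below 0.05, by reads in 4xIOP. The part of any of these cells in the results was not tested.

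**Figure D4:**
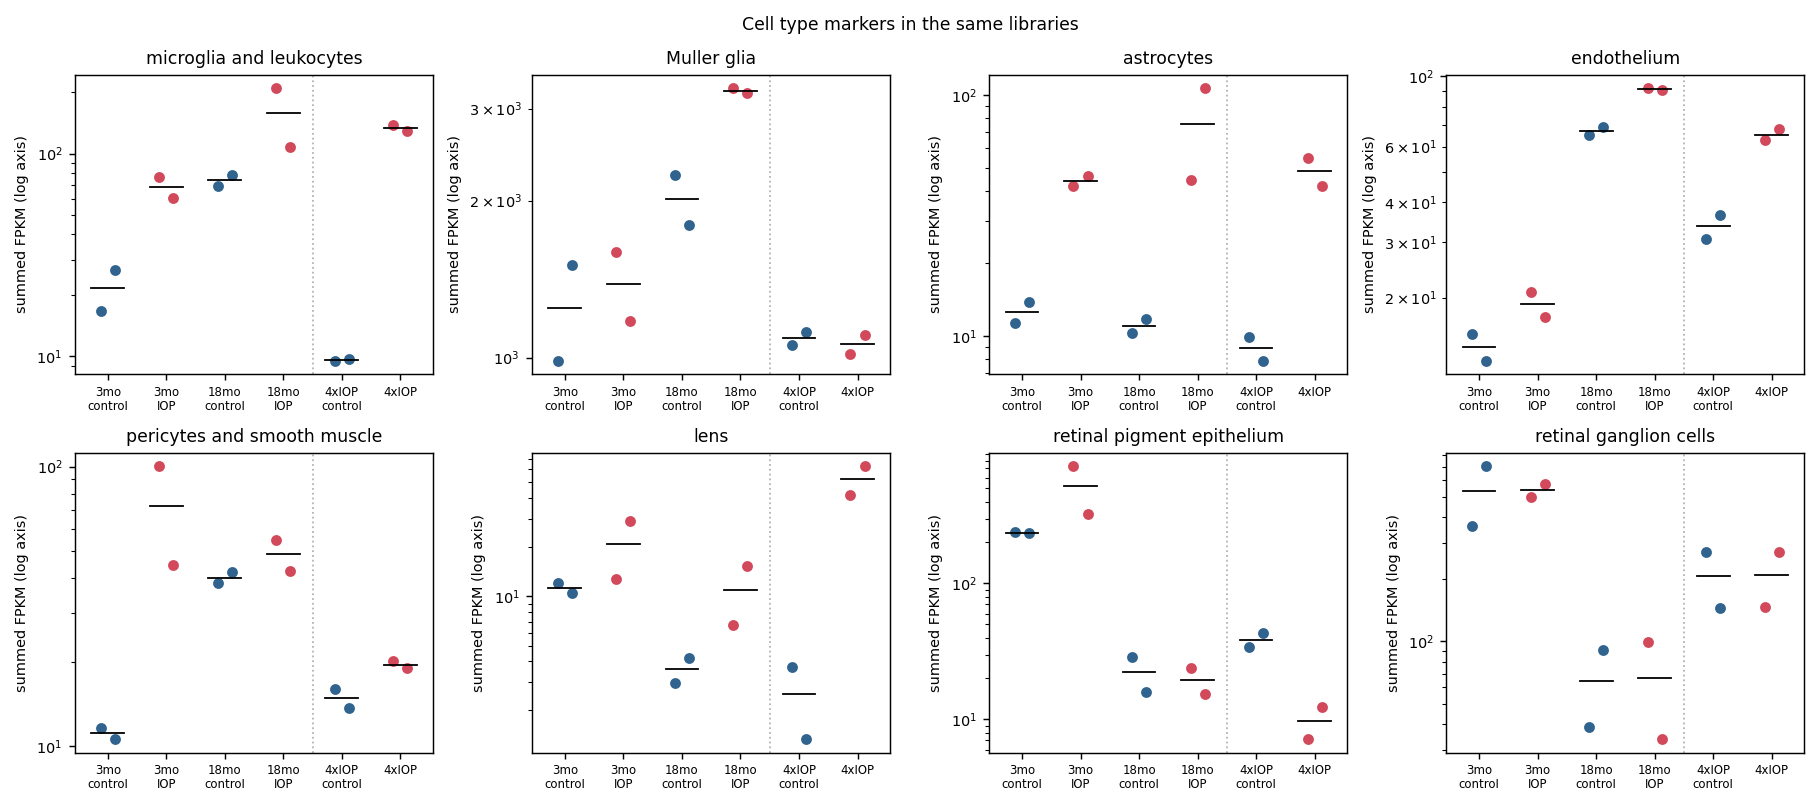
Summed FPKM of 8 marker lists (vertical log axis) in the 12 libraries by group (horizontal axis), with blue points for control and red for IOP libraries and a line for the mean. Microglia and leukocyte markers are at 9.54 and 9.77 in 4xIOP control and at 138 and 129 in 4xIOP, and lens markers at 3.68 and 1.34 and at 41.8 and 62.6, while the sums of Muller glia markers overlap there and at 3 months but not at 18 months.

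Ccna2 had 524 to 3860 reads a library, a range that overlaps that of Ccnd1 (360 to 2219), where Cdk1, a gene of the same phases as Ccna2, had at most 108. The listed transcript, NM_009828 on chr3:36564865-36573038 (minus strand, mm10), starts 104 bases after the end of Bbs7, a gene of the primary cilium, on the same strand, and its start lies 888 bases upstream of that of the Ccna2 gene in GENCODE M21. Bbs7 lay between 29.9 and 99.6 FPKM in the 12 libraries and Ccna2 between 3.68 and 19.3. At its other end the Ccna2 transcript shares 863 bases with Exosc9 on the opposite strand. The part of either neighbour in the Ccna2 reads was not tested. Of the other genes, Ccnd1 shares 1771 bases with LTO1 and Mki67 674 bases with Gm45240, both on the opposite strand, and the counting was by strand. The listed extent of Top2a holds the snoRNA genes Gm26394 on the opposite strand and Gm23451, of 122 bases, on the same strand, which counting by strand does not set apart.

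Finally, the genes whose pattern was most like those of Mki67, Top2a and Ccnd1 over the 8 single-IOP libraries were found by Pearson's r of log2(FPKM + 0.5). For Mki67 these were Tagln2 (r = 0.991), Bop1 (0.989), Irf1 (0.988), Cfi (0.987) and Szrd1 (0.985). For Top2a they were Rtp4 (r = 0.975), Irgm1 (0.968), Ifitm3 (0.966), Tgm1 (0.957) and Igtp (0.954). For Ccnd1 they were Nfkbia (r = 0.987), Cisd2 (0.984), Pdlim3 (0.984), Slc14a1 (0.983) and Gadl1 (0.981). These are the 5 highest of 13731 or 13730 correlations for each gene, over 8 libraries that share groups, table and processing, and are given as a description only.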

How the data were processed

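Poly(A)-enriched, strand-specific libraries of whole retina were aligned by the authors with STAR 2.7.8a to mm10 and counted with HOMER in exons on the transcribed strand, with a single isoform per locus, per the file headers and the submitters' processing notes. The deposited values are FPKM, in a table for each series, and replicates were not pooled. The tables were normalised separately and were tested separately. Tags per library were found as the number that turns FPKM times length into whole reads, and 100% of the values checked came out whole within 0.2 reads. Exons held between 44.2% and 71.5% of tags.

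FPKM was put on a log2 scale after adding 0.5 and fitted in limma 3.58.1 under R 4.3.3 (lmFit, then eBayes with trend). Reads were fitted by voom with the recovered tags as library size. The 8 single-IOP libraries entered as 4 groups and the 4 others as 2 groups. Both fits and the recovery of tags were tested on simulated data. Ratios are of summed reads per tag with exact (Clopper-Pearson) intervals at 95%, and 3 reads were taken as the limit of measurement. Intervals and limits cover counting error only. The 9 genes, the lists and the tests were chosen with earlier results of these data known. From the lists, the 3 called genes with the largest change in each comparison were named, or the smallest p-values where none was called, with the paralogs of the 9 genes. Other called list genes and genes behind short counts were named after their values were seen.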

Additional observations from a re-analysis of the deposited data

How the results depend on the processing

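With 2 libraries a group and under 10 control reads for several genes, depth limits the folds of Ccnb1, Cdk1, Rrm2, Top2a and Mki67, and leaving out a library leaves a group of 1 that is assumed to vary like the others. Over all alternatives and the genes in each comparison, 456 of the recomputed log2 fold changes kept direction and side of the threshold, 17 lost a call, 6 gained one and 27 changed sign; the cause was not tested. Counts of the 9 genes called are given first, and the shares of all genes called by the main fits are given with each comparison above. In 4xIOP the FPKM fit called 0, and 2 (Mki67 and Top2a) with no filter or with a mean of at least 0.1 FPKM. The voom fit called 5 there. Its call of Ccnb1 was lost with size factors, those of Cdk1 and Ccnb1 were lost without some single libraries, and Birc5 was gained without a control library. With age in controls the FPKM fit called 1, but 0 with median-of-ratios size factors or the length trend removed and 2 with voom, and the voom fit called 2, but 1 with size factors; without each library in turn the ranges were 0 to 1 and 0 to 1. With age in IOP retinas the FPKM fit called 0, but 1 with a pseudocount of 0.1 and 2 with voom (0 to 2 without each library), and the voom fit called 2, but 1 with size factors (0 to 2 without each library). Whether the replicate numbers pair the eyes of an animal is not known. Same-numbered control and IOP libraries deviated in opposite directions (r = -0.275, -0.530 and -0.290 over genes in the 3 pairs of groups). Groups of different age, which cannot be paired, also gave negative values (-0.121 for control and -0.148 for IOP retinas), so these values do not decide it. The main fits had no replicate block. With a replicate block the voom fit called 6 in 4xIOP, adding Birc5, and 1 with age in IOP retinas, and the block moved no other count. With crossed numbers, chosen after seeing the data, these counts were 6 and 3. The values that changed sign are given next. With size factors Ccna2 in 3mo IOP was -0.088 and Rrm2 in 18mo IOP -0.10. With the length trend removed Mcm5 in 18mo IOP was 0.011 and Birc5 was 0.68 with age in controls and 0.52 in IOP retinas. Without each library in turn the ranges were -0.16 to 0.38 for Ccna2 in 3mo IOP and, in 18mo IOP, -0.43 to 0.18 for Ccna2, -0.083 to 0.066 for Mcm5 and -0.65 to 0.77 for Rrm2. They were -0.087 to 0.49 for Ccnd1 in 4xIOP. With age in controls they were -0.26 to 0.026 for Birc5, -0.086 to 0.063 for Mcm5 and -0.098 to 2.02 for Rrm2, and with age in IOP retinas -0.087 to 0.51 for Mki67. For the interaction they were -0.42 to 0.052 for Birc5, -0.54 to 0.075 for Ccna2 and -0.33 to 0.96 for Cdk1.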
